A study of Mus musculus with 4 samples.

Results

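The Dlk1-Dio3 domain is an imprinted region of mouse chromosome 12 that carries one of the largest groups of miRNA genes in the genome. Its transcripts were examined in the small intestinal muscularis of smDicer KO and WT mice. Probe sets were taken where the deposited annotation gave exactly 1 of 5 symbols, Meg3, Rian, Mirg, Dlk1 or Dio3. This gave 18 of 45037 probe sets, for 4 of the 5 genes: 10 for Meg3, 4 for Rian, 2 for Mirg and 2 for Dlk1. No probe set had Dio3 alone as its symbol, so Dio3 was not analysed here. The 4 genes were singled out because they were higher in smDicer KO than in WT on these same arrays. The values of smDicer KO against WT are therefore a description of these transcripts, and no p-value is given for them.

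The smDicer KO mice were smDicer-/-;Cre-GFP/+, bred from smMHC Cre-GFP/+ and Dicer lox/lox mice, so that Cre and eGFP were driven by the smooth muscle myosin heavy chain (Myh11) promoter and Dicer was deleted in SMCs. The paper's list of mice gives this genotype as Dicer lox/Δ with smMHC Cre-GFP/+, and the extended methods as Dicer lox/lox. That list calls Dicer lox/Δ mice without Cre heterozygous null, so cells other than SMCs may also carry a deleted allele. The methods name WT mice as smMHC Cre-GFP/+, and the extended methods as siblings of the transgenic mice. The genotype of the individual mice put on the arrays is not given in the sources used here. Each group had 2 mice of 3 weeks, with 1 array per mouse, and the labels name the tissue as jejunum. In the extended methods the smDicer KO mice are female, while the sex of the WT mice is not given. Xist, the transcript of the inactive X chromosome, lay between 10.78 and 11.52 on all 4 arrays, and none of 12 probe sets of Y-linked genes exceeded 3.85. The muscularis had been stripped of mucosa and submucosa. It also holds neurons, glia, interstitial cells and fibroblasts, which can still express Dicer.

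All levels are log2 values after RMA, a normalization that corrects background, gives arrays 1 common distribution and combines the probes of a set. A difference of 1 on this scale is a 2-fold change. RMA gives no detection call, and values under about 6 lie near background. Dicer1, the deleted gene, had 7.52 and 7.36 in smDicer KO and 7.82 and 8.08 in WT on its brighter probe set. The difference was -0.51 ± 0.16 (SE, n = 2 each), and it did not pass the test (limma, adjusted p = 0.271). In the paper, PCR of mutant tissue gave a shortened Dicer product, and sorted smDicer KO SMCs had none of the WT product. The level in whole tissue, where other cells can still express Dicer, is not a measure of that deletion. The arrays of the smDicer KO group correlated with each other at r = 0.973 and those of WT at r = 0.992, over all probe sets, and probe sets are not replicates.

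Cell type markers differed between the arrays. The 12 markers of mucosal epithelium, which the dissection should remove, were all higher on both smDicer KO arrays than on both WT arrays. Their median shift from the WT mean was 3.56 on the first and 6.18 on the second smDicer KO array, against -0.77 and 0.77 on the WT arrays. Pancreatic acinar markers followed another order, with medians of -2.17 and 5.33 on the smDicer KO arrays and -1.69 and 1.69 on the WT arrays. The 5 acinar markers were thus high on the second array of each group and near background on the first. All 10 smooth muscle markers had lower means in smDicer KO, with median shifts of -0.21 and -1.04. All 10 enteric neuron markers were higher on both smDicer KO arrays than on both WT arrays, with median shifts of 0.92 and 0.41. In whole tissue, fewer cells of a type and less RNA per cell cannot be told apart.

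In this domain the long noncoding RNAs Meg3, Rian and Mirg are transcribed in 1 direction from the maternal chromosome, and the protein-coding genes Dlk1, Rtl1 and Dio3 are expressed from the paternal one. The noncoding RNAs are spliced transcripts whose introns and exons release miRNAs and small nucleolar RNAs. Drosha cuts the hairpins out of the primary transcript in the nucleus, and Dicer then usually trims the hairpin to the mature miRNA in the cytoplasm. The arrays read the long transcripts, not the miRNAs. In the paper's PCR of sorted smDicer KO SMCs, most miRNAs were reduced or no longer detected. A minority were raised more than 2-fold, and miR-337-5p and miR-380-3p of this domain were among these. The paper proposes that such miRNAs may be made without Dicer. RefSeq places Dlk1 at chr12:109452485-109463336, Meg3 at chr12:109540996-109571729, Rian at chr12:109603945-109661716, Mirg at chr12:109734981-109749458 and Dio3 at chr12:110279230-110281097 in GRCm38.p6. The deposited alignments of the probe sets differ from this build and name none, so their exon or intron positions were not assigned.

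The RefSeq table holds 114 mature miRNA sequences between Dlk1 and Dio3, of which 3 lie inside the Meg3 span, 6 inside Rian and 19 inside Mirg. The sequences below show what the measured transcripts carry, with the seed, bases 2 to 8, in capitals. They are RNA letters from 5′ to 3′, and the first 3 lie in the spans of Meg3 and Rian and the rest in that of Mirg.
miR-770-5p: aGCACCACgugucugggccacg
miR-341-3p: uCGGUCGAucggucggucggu
miR-370-3p: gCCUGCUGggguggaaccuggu
miR-154-5p: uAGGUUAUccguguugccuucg
miR-377-3p: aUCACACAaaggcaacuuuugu
miR-409-3p: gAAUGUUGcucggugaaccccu
miR-369-3p: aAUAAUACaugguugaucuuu
miR-410-3p: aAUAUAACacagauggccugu
None of these 8 shares its seed with another of the 8.

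Across the 114 entries, 113 sequences were distinct and carried 104 seeds, and 9 seeds were shared by a pair of distinct sequences. The 3 pairs that involve a miRNA inside Rian or Mirg show how far apart in the domain the same seed recurs. In the first pair miR-370-5p lies in Rian and miR-1193-3p between Rian and Mirg, in the second both lie in Mirg, and in the last miR-410-5p lies in Mirg and miR-494-5p upstream of it.
miR-370-5p: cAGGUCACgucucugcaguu
miR-1193-3p: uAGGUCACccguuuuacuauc
miR-453: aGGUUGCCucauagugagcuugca
miR-496a-5p: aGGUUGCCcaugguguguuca
miR-494-5p: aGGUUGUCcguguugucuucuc
miR-410-5p: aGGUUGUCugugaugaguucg
Each pair was the same over the seed, and its full sequences were distinct.

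Meg3, a noncoding RNA at the start of the maternally expressed unit, had 10 of the 18 probe sets. All 10 were higher on both smDicer KO arrays than on both WT arrays. Across all probe sets this pattern was found in 20.6%, and since the genes were chosen on this contrast nothing is read from the count of 10. The brightest probe set, 1452905_at, had 11.48 and 10.75 in smDicer KO, against 9.90 and 9.77 in WT. The groups did not overlap, and the difference of 1.28 ± 0.27 (SE, n = 2 each) is a 2.42-fold higher level in smDicer KO.

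Probe set 1439380_x_at had 11.32 and 10.98 in smDicer KO, against 9.76 on both WT arrays. Its difference was 1.38 ± 0.16. The deposited alignment of this probe set, on chromosome 12, lists an identity of only 43.82%. Probe sets 1452183_a_at and 1426758_s_at, which share a representative sequence, gave differences of 1.18 and 1.27. The deposited alignment of both names only a partial match on chromosome X, at 41.62% in the file's identity column, and their Meg3 symbol rests on the annotation. Both still followed the other Meg3 probe sets, with 11.30 and 10.77 in smDicer KO and 9.88 and 9.82 in WT for 1452183_a_at.

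The 10 Meg3 probe sets fell into 2 sets by size, a division made after their values were seen. In 4 of them the difference was 1.77 to 2.12, that is 3.42-fold to 4.34-fold, and in the other 6 it was 1.06 to 1.38, or 2.08-fold to 2.61-fold. Probe set 1428764_at, with the largest difference, had 9.02 and 8.18 in smDicer KO and 6.92 and 6.04 in WT. Probe set 1452906_at had 9.59 and 8.79 in smDicer KO and 7.63 and 6.56 in WT. Those with the larger differences were also the ones that varied most within WT. The first WT array exceeded the second by 0.53 to 1.07 in these 4, and by -0.05 to 0.25 in the other 6. Probe sets 1428764_at, 1428765_at and 1452905_at share a representative sequence but differed by 2.12, 2.05 and 1.28.

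**Figure D1:**
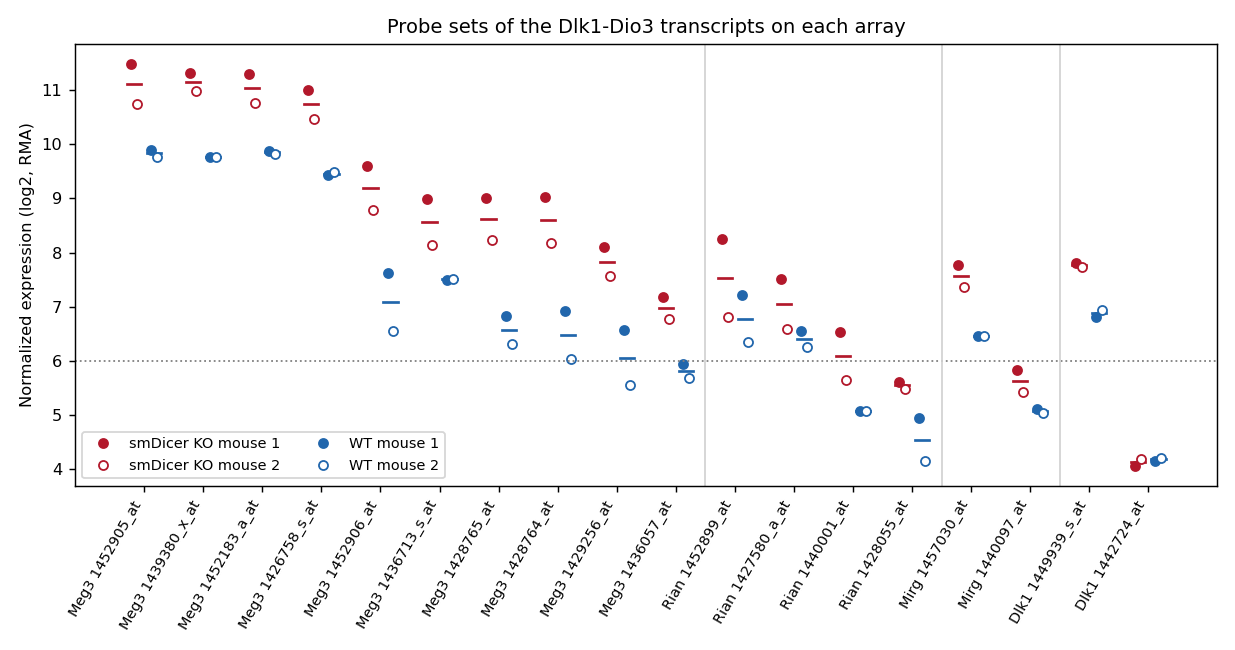
Normalized expression (log2, y axis) of the 18 probe sets of Meg3, Rian, Mirg and Dlk1, with smDicer KO in red at the left and WT in blue at the right of each position. Filled points are mouse 1, open points mouse 2, bars group means and the dotted line a value of 6. In 16 of 18 probe sets both smDicer KO points lie above both WT points, and the exceptions are Rian 1452899_at and Dlk1 1442724_at.

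The RefSeq window at the Meg3 start, 250 bases before it and 50 after, is printed because Meg3, Rian and Mirg are read in 1 direction and were all higher in smDicer KO on these arrays. It lies at chr12:109540746-109541045 on the plus strand of GRCm38.p6. Capitals mark CCAAT, the cAMP response element TGACGTCA and TATAAA, in this order.
Meg3: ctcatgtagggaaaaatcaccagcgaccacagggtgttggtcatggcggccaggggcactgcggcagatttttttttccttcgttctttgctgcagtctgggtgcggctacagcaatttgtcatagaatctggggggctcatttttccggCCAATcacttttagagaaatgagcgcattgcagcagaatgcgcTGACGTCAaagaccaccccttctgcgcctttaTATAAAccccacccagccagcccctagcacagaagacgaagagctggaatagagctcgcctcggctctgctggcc
On either strand, TGACGTCA was found in 1.79% of 32851 such windows, TATAAA in 13.6% and CCAAT in 37.4%. Among the windows of the 5 genes TGACGTCA was found in this one alone, and TATAAA also in that of Dio3. CCAAT was found also in those of Mirg and Dio3. A CArG box, the binding motif of SRF, was found in 1.63% of windows and among these genes only in the window of another annotated Meg3 start. A match is a description of letters and not of a bound site.

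Rian, a noncoding RNA that hosts C/D box small nucleolar RNAs and miRNAs, had differences of 0.65 to 1.01 over its 4 probe sets. Its brightest probe set, 1452899_at, had 8.25 and 6.81 in smDicer KO, against 7.22 and 6.35 in WT. The deposited alignment of this probe set lists an identity of only 55.44%. The second smDicer KO array lay below the first WT array, so the groups overlapped, and the difference of 0.75 ± 0.57 rests on the first smDicer KO array. Without that array it was 0.03.

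Probe set 1427580_a_at of Rian had 7.51 and 6.59 in smDicer KO and 6.55 and 6.25 in WT, and 1440001_at had 6.54 and 5.64 in smDicer KO and 5.07 and 5.08 in WT. Probe set 1428055_at had 5.61 and 5.49 in smDicer KO, against 4.94 and 4.16 in WT. In these 3 the groups did not overlap, but in the first the gap between the second smDicer KO array and the first WT array was small. The last 2 had a mean under 6 over the 4 arrays, near background.

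Mirg, the noncoding RNA at the far end of the miRNA cluster, had 7.78 and 7.36 in smDicer KO and 6.46 and 6.47 in WT on 1457030_at. The difference was 1.11 ± 0.18, or 2.15-fold, and the WT arrays were nearly equal. On 1440097_at it had 5.84 and 5.43 in smDicer KO, against 5.11 and 5.04 in WT, a difference of 0.56 ± 0.18 near background. The groups did not overlap on either probe set.

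The window at the RefSeq start of Mirg is shown because it lies within the run of miRNA genes and holds 3 of the 114 listed mature sequences. Of miR-485 only the 3p sequence was listed, so its 5p arm is not marked. It spans chr12:109734731-109735030 on the plus strand of GRCm38.p6, and capitals mark miR-668-5p, miR-668-3p and miR-485-3p, in this order, in DNA letters.
Mirg: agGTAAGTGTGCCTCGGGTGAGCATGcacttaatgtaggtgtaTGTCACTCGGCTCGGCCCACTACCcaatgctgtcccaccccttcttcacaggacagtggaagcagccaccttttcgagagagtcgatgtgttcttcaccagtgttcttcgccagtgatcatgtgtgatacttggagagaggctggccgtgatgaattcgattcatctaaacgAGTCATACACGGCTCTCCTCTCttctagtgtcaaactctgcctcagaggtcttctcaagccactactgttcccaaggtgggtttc
This window held CCAAT but neither TGACGTCA nor TATAAA.

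Dlk1 encodes a transmembrane protein of the Notch ligand family without the usual receptor-binding domain and is known as an inhibitor of adipocyte differentiation. On 1449939_s_at it had 7.81 and 7.73 in smDicer KO, against 6.81 and 6.95 in WT, a difference of 0.89 ± 0.13 or 1.85-fold. Both arrays of a group lay close together here, and the groups did not overlap. The other probe set, 1442724_at, aligns past the end of the first in the deposited annotation and had 4.07 and 4.19 in smDicer KO and 4.16 and 4.21 in WT, which overlapped at background level. Of the 18 probe sets, 14 reached 6 on at least 2 arrays, and the 4 that did not were 2 of Rian, 1 of Mirg and this one of Dlk1.

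Where each gene was represented by its brightest probe set, the differences were 1.28 for Meg3, 1.11 for Mirg, 0.89 for Dlk1 and 0.75 for Rian, with a median of 1.0. The median over all 20461 genes was -0.04. In the order of all genes from the highest difference, Meg3 stood at 579, Mirg at 709, Dlk1 at 935 and Rian at 1210, within the upper 2.83% to 5.91%. These ranks describe what the choice of genes used. The order among the 4 is not firm, since the SDs within smDicer KO were 0.51 for Meg3, 0.30 for Mirg, 0.06 for Dlk1 and 1.02 for Rian (n = 2).

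A further 5 probe sets align between the outermost of these, carry other symbols or none, and were looked up after the values of the genes were seen. Among them 4 were higher on both smDicer KO arrays than on both WT arrays, a pattern found in 20.6% of all probe sets. Probe set 1429257_at has no symbol but shares its representative sequence with a Meg3 probe set, and it had 8.44 and 7.40 in smDicer KO and 6.65 and 5.81 in WT. The transcript 1110006E14Rik, between Meg3 and Rian, had 6.38 and 5.80 in smDicer KO, against 5.05 and 4.86 in WT. In both the groups did not overlap, and the first smDicer KO array was above the second, as in Meg3.

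The transcript 6430411K18Rik, which RefSeq describes as antisense to Rtl1, had 4.92 and 5.10 in smDicer KO and 4.68 and 4.40 in WT. B830012L14Rik, between Rian and Mirg, had 4.79 and 4.17 in smDicer KO and 3.85 and 3.39 in WT. Both are near background. The last, 1458095_at inside the Meg3 region, was at 3.84 and 3.92 in smDicer KO and 3.91 and 3.85 in WT. At the Dio3 end, Dio3os, the transcript opposite to Dio3, had 4.95 and 5.12 in smDicer KO and 5.09 and 5.19 in WT. The difference of -0.10 ± 0.13 lay within the spread at background level.

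**Figure D2:**
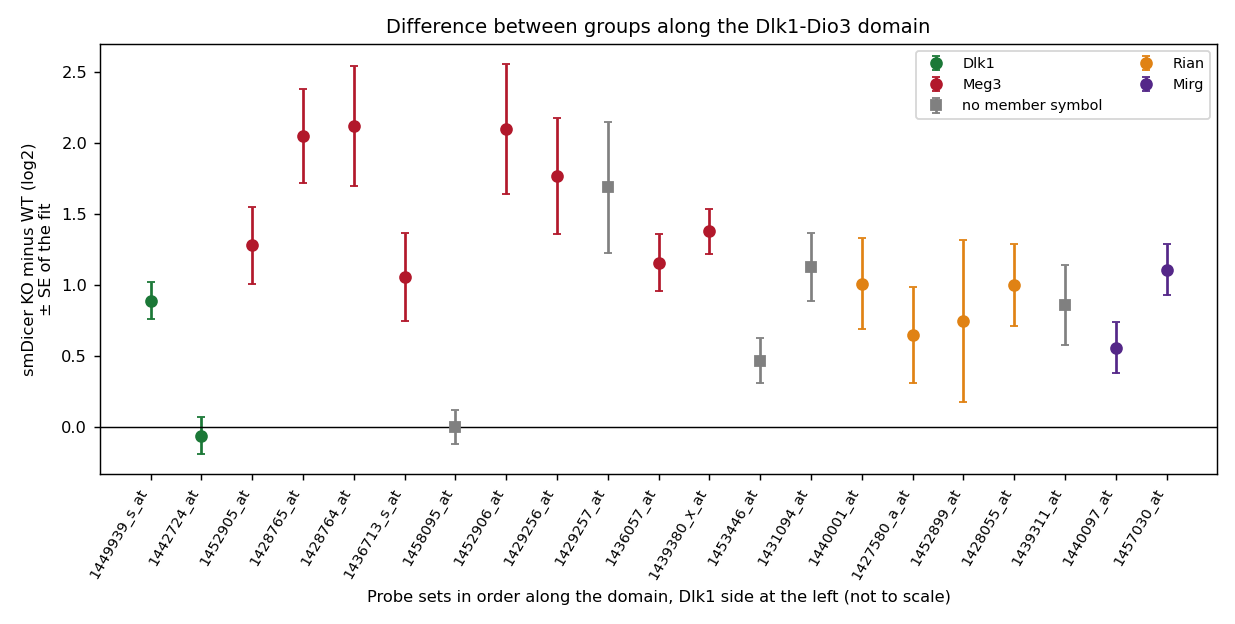
Difference of smDicer KO minus WT (log2, y axis, error bars the SE of the limma fit, n = 2 each) for 21 probe sets in their order along the domain (x axis, not to scale), with the Dlk1 side at the left. Squares are probe sets with no symbol of the 5 genes. Meg3 1452183_a_at and 1426758_s_at are not shown, since their deposited alignment is on chromosome X. The largest values, 1.69 to 2.12, lie within Meg3, and the values over Rian and Mirg lie between 0.56 and 1.11.

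The noncoding transcripts also shared an order of arrays that the choice of genes did not use. In 16 of 16 probe sets of Meg3, Rian and Mirg the first smDicer KO array was above the second, as it was in 54.8% of all probe sets. The gap was 0.12 to 1.44, and it was widest for Rian 1452899_at. For Dlk1 1449939_s_at the gap was 0.08, beside a difference between groups of 0.89. Members of 1 transcript share RNA, so these 16 are not independent.

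This order ran opposite to that of the epithelial and acinar markers, which were highest on the second smDicer KO array. The first smDicer KO array was above the second in the median of 8 of the 10 marker lists, all but those 2, so that order was not particular to the domain transcripts. In 3 of the 8, those of enteric neurons, interstitial cells of Cajal and macrophages, both smDicer KO medians were also above both WT medians. The macrophage markers were split. Of these 5, 3 were higher on both smDicer KO arrays than on both WT arrays, and 2, Mrc1 and Cd163, were lower. Of the 3 markers of interstitial cells of Cajal, 2 were higher in this way and Kit overlapped. The neuron markers were higher in smDicer KO by 0.53 to 1.10, with a median of 0.66, against differences of 0.56 to 2.12 in the noncoding probe sets. Summed on the linear scale, the 10 neuron markers reached 16800 and 12200 in smDicer KO and 9040 and 8010 in WT. One of the 10 had a mean under 6, none passed the adjusted test, and 8 had an unadjusted p under 0.05. Smooth muscle markers summed to 98300 and 71100 in smDicer KO and 107000 on each WT array, and none had a mean under 6. The 12 epithelial markers summed to 16500 and 61200 in smDicer KO and to 3010 and 3110 in WT. The part of these cell types in the difference of the domain transcripts was not tested. In the comparison of the first smDicer KO array with the first WT array alone, the pair without acinar transcripts, 17 of 18 probe sets were higher in smDicer KO, with a median difference of 1.44. Of all probe sets 45.4% were higher in this pair, with a median of -0.03. At least 16 of the 18 had to be higher here, since both their smDicer KO arrays lay above both WT arrays. The genes were chosen on this contrast, so nothing is read from the count, and the part of acinar tissue was not tested. The epithelial markers still differed in this pair, with medians of 3.56 in smDicer KO and -0.77 in WT.

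**Figure D3:**
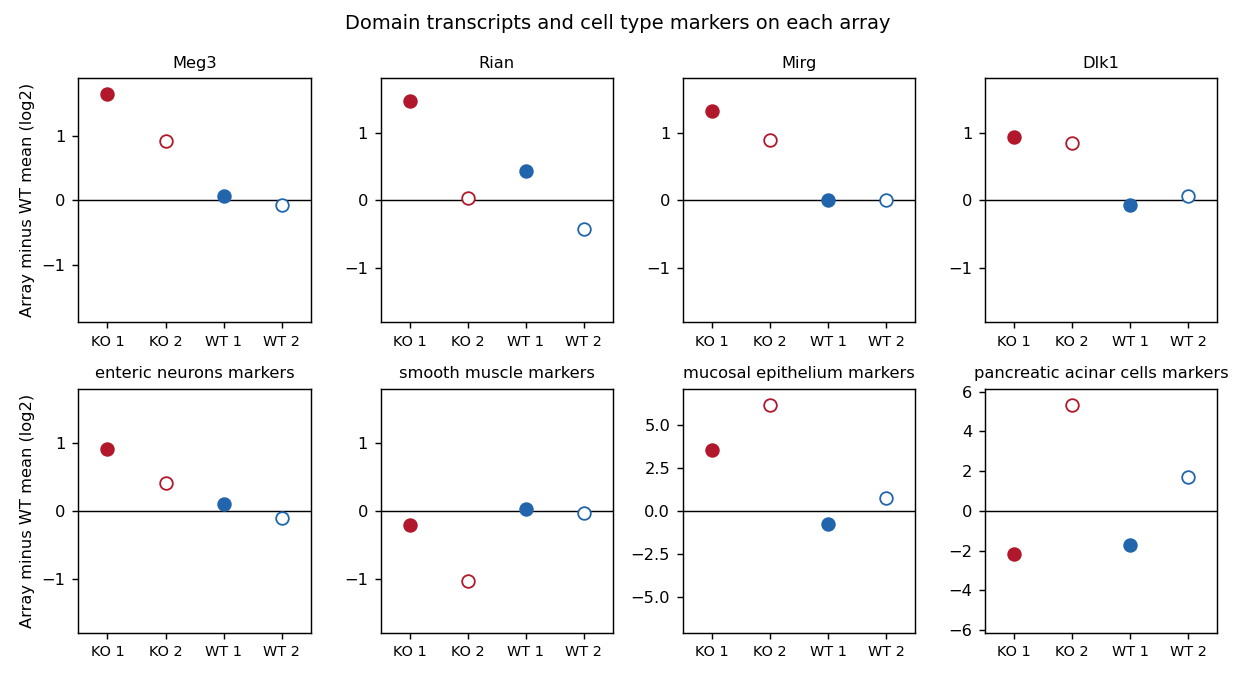
Array level relative to the WT mean (log2, y axis) for 4 domain transcripts, by brightest probe set, and the median of 4 marker lists. The scales differ between panels, most for the mucosal epithelium and pancreatic acinar markers. Arrays of smDicer KO are in red at the left and those of WT in blue at the right. Filled points are mouse 1 and open points mouse 2. Meg3 stood at 1.64 and 0.91 on the smDicer KO arrays and the neuron markers at 0.92 and 0.41, while the epithelial markers stood at 3.56 and 6.18.

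The 5 genes with a mean of at least 6 closest to the domain pattern were picked by the root mean square difference, over 4 arrays, from the mean centred profile of Meg3, Rian and Mirg. That profile was 0.95 and 0.09 on the smDicer KO arrays and -0.36 and -0.69 on the WT arrays. Of 10744 genes compared, the closest were Cfb at 0.07, Vgf and Tpm4 at 0.08, Stat2 at 0.09 and Nos1 at 0.11. Cfb encodes complement factor B, Vgf a secreted peptide precursor of neurons, Tpm4 a tropomyosin, Stat2 an interferon signalling factor and Nos1 the neuronal nitric oxide synthase. Cfb had 9.04 and 8.25 in smDicer KO, against 7.72 and 7.27 in WT, and Vgf had 7.88 and 7.11 in smDicer KO and 6.74 and 6.44 in WT. Tpm4 had 11.93 and 11.28 in smDicer KO and 10.80 and 10.38 in WT. In all 5 genes both smDicer KO arrays were above both WT arrays. The profile used to pick them already had this order, so nothing is read from it. Stat2 had 7.54 and 6.55 in smDicer KO and 6.02 and 5.88 in WT, and Nos1 had 10.19 and 9.19 in smDicer KO and 9.05 and 8.64 in WT. With 4 arrays such a likeness is a description only.

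Another 6 lists of genes gave the setting of these values. No gene of any list passed an adjusted p of 0.05 in limma, and none of all 20461 genes did, 0% of those tested. Over all probe sets limma called 0 and had 7119 at an unadjusted p under 0.05, and an unmoderated linear model called 0 and had 4527. At an unadjusted p under 0.05, 7.19% of genes were higher and 10.5% lower in smDicer KO, and the counts in each list are to be read against these shares.

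The list of flanking genes on chromosome 12 had 22 genes, of which 16 were measured, with a median difference of -0.09. Rtl1, a gene of the domain itself, was in this list and was not found under its symbol. At an unadjusted p under 0.05, 2 were higher and 3 lower. Hsp90aa1, a chaperone, had 12.31 and 11.91 in smDicer KO and 12.08 and 11.74 in WT, which overlapped. Dync1h1, the dynein heavy chain, had 10.69 and 10.66 in smDicer KO and 10.26 and 10.48 in WT. The largest difference was that of Amn, the amnionless protein of cubilin uptake, which had 7.83 and 10.07 in smDicer KO and 4.91 and 5.25 in WT (limma, adjusted p = 0.23). Degs2, a sphingolipid desaturase, had 6.38 and 9.49 in smDicer KO and 4.86 and 5.22 in WT (limma, adjusted p = 0.309). Amn and Degs2 were highest on the second smDicer KO array, as the epithelial markers were and the domain transcripts were not.

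Of 34 genes elsewhere that host miRNAs, 29 were measured, with 14 above and 15 below 0 and a median of -0.04. At an unadjusted p under 0.05, 4 were higher and 4 lower. Copz2, a coatomer subunit whose intron holds miR-152, had 8.96 and 8.46 in smDicer KO and 9.69 and 9.56 in WT (difference -0.91; limma, adjusted p = 0.234). Tmem49, the host of miR-21 now called Vmp1, had 9.55 and 10.43 in smDicer KO and 9.19 and 9.06 in WT (difference 0.87; limma, adjusted p = 0.312). Ctdsp2 had a difference of -0.42 and Slit2 of -0.22, and both hosts lay lower on each smDicer KO array than on each WT array.

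All 27 imprinted genes outside the domain in the list were measured, 18 above and 9 below 0, with a median of 0.18. At an unadjusted p under 0.05, 5 were higher and 4 lower. Slc38a4, an amino acid transporter, had 8.08 and 6.88 in smDicer KO and 5.99 and 5.43 in WT (difference 1.77 ± 0.46; limma, adjusted p = 0.246). Mest, which is also in the list of host genes, had 8.25 and 8.31 in smDicer KO and 7.63 and 7.50 in WT (difference 0.72 ± 0.13; limma, adjusted p = 0.226). These were the imprinted genes with the largest differences among those at 6 or more in the higher group. Gnas and Plagl1, the brightest, differed by -0.10 and 0.07 with overlapping groups. Igf2, a growth factor that shares its imprinted region with H19, went the other way, with 8.36 and 8.23 in smDicer KO and 8.86 and 8.97 in WT, and was named after its values were seen.

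Of 18 regulators of imprinting, 17 were measured, with a median of -0.02, and 0 were higher and 2 lower at an unadjusted p under 0.05. Trim28, a corepressor that holds imprints, had 10.35 and 10.32 in smDicer KO and 10.31 and 10.35 in WT, and Zfp445, a zinc finger protein of the same role, had 10.09 and 9.78 in smDicer KO and 9.81 and 10.07 in WT. Both overlapped. Ctcf, an insulator protein, had 8.38 and 8.39 in smDicer KO and 8.71 and 8.74 in WT (limma, adjusted p = 0.294). Uhrf1, which brings Dnmt1 to DNA, varied within both groups, with 5.03 and 7.18 in smDicer KO and 7.58 and 6.13 in WT.

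Thyroid hormone genes were included because Dio3 inactivates that hormone. Of 21, 20 were measured, with a median of -0.02, and 1 was higher and 0 lower at an unadjusted p under 0.05. That gene was Dio1, a deiodinase, with 6.0 and 8.73 in smDicer KO and 3.46 and 3.61 in WT (limma, adjusted p = 0.24). Slc16a10, a carrier of thyroid hormone and aromatic amino acids, had 6.23 and 8.24 in smDicer KO and 5.68 and 5.88 in WT (limma, adjusted p = 0.385). Both were highest on the second smDicer KO array, where the epithelial markers were highest. Thra and Ncor1, a receptor of the hormone and its corepressor, differed by -0.12 and -0.08.

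Adipogenic genes were included because of Dlk1. Of 16, 15 were measured, with a median of 0.06, and 0 were higher or lower at an unadjusted p under 0.05. Fabp4, a fatty acid carrier of adipocytes, had 10.32 and 9.87 in smDicer KO and 9.94 and 10.12 in WT. Cebpb, a transcription factor of early adipogenesis, differed by 0.07. Cebpa had 6.11 and 7.39 in smDicer KO and 5.69 and 5.94 in WT (limma, adjusted p = 0.393), and Lpl, the lipoprotein lipase, had 8.82 and 8.29 in smDicer KO and 9.22 and 9.05 in WT (limma, adjusted p = 0.318).

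**Figure D4:**
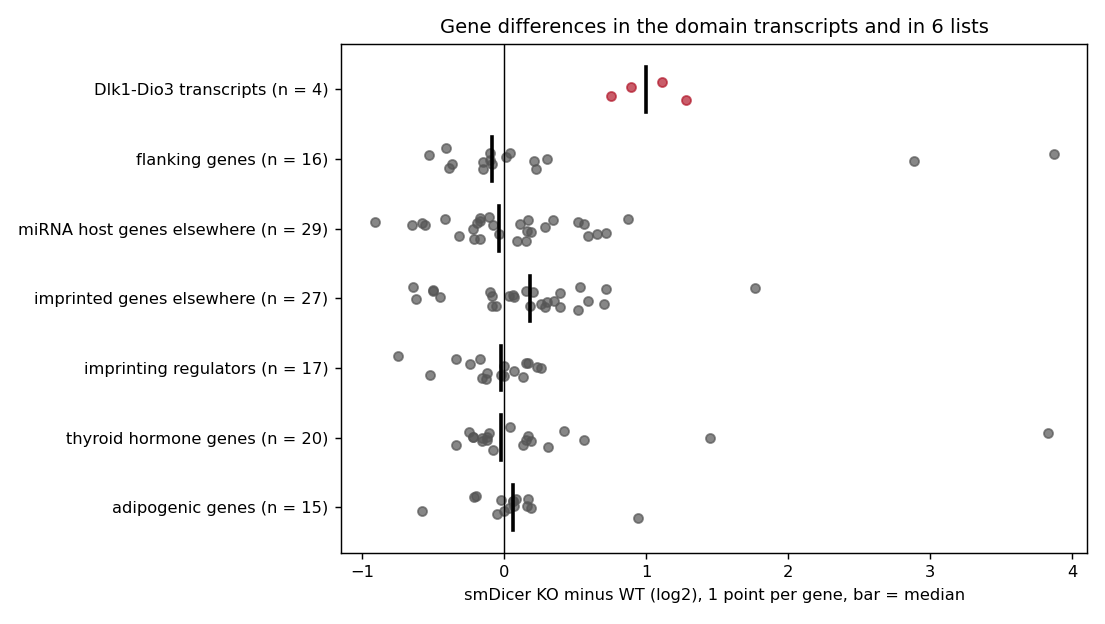
Difference of smDicer KO minus WT (log2, x axis) for the 4 domain transcripts and for the genes of 6 lists, with 1 point per gene and a bar at the median. The domain transcripts lie between 0.75 and 1.28, and the medians of the lists lie between -0.09 and 0.18.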

How the data were processed

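RNA of the small intestinal muscularis of 2 smDicer KO and 2 WT mice was hybridized to Affymetrix Mouse Genome arrays, 1 per mouse, with total RNA of 3 µg per the labels or about 2 µg per the methods. The authors normalized the arrays with RMA, no version being given, and deposited the resulting log2 values. Of 45101 probe sets, 64 controls were left out. The deposited fold changes, p-values and gene list were not used.

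Differences of smDicer KO minus WT were fitted with limma 3.58.1 in R 4.3.3 over all 45037 probe sets, with Benjamini-Hochberg adjustment over all. For each gene the probe set of highest mean stood in (36804 probe sets had 1 symbol, 2005 several, 6228 none). Tables used Python 3.11.15, pandas 2.3.3 and numpy 2.4.6, and figures matplotlib 3.10.9. The fit was tested on simulated data. With 2 arrays per group the number of arrays limits the precision. miRNA and start-site sequences came from RefSeq tables (GRCm38.p6), where all 5 genes matched. The genes, lists and markers were chosen with earlier results of these data known. Named from each list were the 2 genes with the highest mean and the 2 with the largest difference among those of at least 6 in the higher group, and the 5 genes closest to the domain profile. Other marker lists (glia, interstitial cells of Cajal, fibroblasts, macrophages, endothelium, adipocytes) had medians of 0.10, 0.32, -0.13, 0.34, -0.04 and 0.03. Alternatives were other tests, filters, scalings and probe sets, a replicate block and each array left out.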

Additional observations from a re-analysis of the deposited data

How the results depend on the processing

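The median difference over the 4 domain genes was 1.0, and it was 0.96 with median centring, 1.09 with cyclic loess, 0.84 with the mean over all probe sets of a gene and 1.0 with the replicate block. Leaving out each array in turn gave 0.87 to 1.39, the lowest without the first smDicer KO array and the highest without the second. Meg3 ranged from 0.91 to 1.64, Mirg from 0.89 to 1.32, Dlk1 from 0.82 to 1.0 and Rian from 0.03 to 1.47 over all settings. The count of probe sets with both smDicer KO arrays above both WT arrays was 16 in the main setting and 16 under both scalings. Over all probe sets the share was 20.6% in the main setting. The count was 13 of 14 among those kept by the filter on low values, which kept Meg3 1436057_at through its smDicer KO values alone. With an array left out, 16 to 17 had the remaining smDicer KO arrays above the remaining WT arrays. Dropping an array cannot lower this count, so nothing is read from it. The comparison of the first array of each group alone, added after seeing the data, gave a median of 1.18 and 17 probe sets. That count could not fall below 16 either. No probe set carried a domain symbol among several, so that alternative gave no value. Scaling moved the median over all probe sets to between -0.07 and 0.01.

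The number of genes past the adjusted p was 0 in every list with all arrays, under each alternative. With an array left out it was 0 to 2 for the flanking genes and 0 to 1 for the thyroid hormone genes, the higher value in both without the first smDicer KO array, and 0 for the other lists.

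At an unadjusted p under 0.05 the flanking genes numbered 5, but 3 with the filter, 1 with an unmoderated linear model, 2 with trend and robust eBayes and 2 at 2-fold or more. Host genes numbered 8, but 0 at 2-fold or more. Imprinted genes elsewhere numbered 9, but 3 with the unmoderated model and 1 at 2-fold or more. Regulators of imprinting numbered 2, but 0 with the filter, 1 with cyclic loess, 1 with trend and robust eBayes and 0 at 2-fold or more. Thyroid hormone genes numbered 1, but 0 with the unmoderated model and 2 with the least variable probe set of each gene. Adipogenic genes numbered 0, but 1 with median centring, 1 with trend and robust eBayes and 3 with the least variable probe set. Leaving out each array in turn gave 0 to 5 for flanking genes, 2 to 11 for host genes, 1 to 10 for imprinted genes, 0 to 1 for regulators, 0 to 4 for thyroid hormone genes and 0 to 5 for adipogenic genes. The cause of these changes was not tested, other than that the filter and the fold limit leave fewer genes.

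The labels number the mice 1 and 2 in each group without saying that a number is shared by litter or day. The deviations of same-numbered arrays correlated at r = 0.251 over probe sets. With the replicate block the unadjusted counts were 3 for flanking genes, 1 for regulators and 2 for adipogenic genes, and the differences themselves are the same by construction. With 2 arrays per group an exact permutation test cannot go below a two-sided p of 0.333.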
